A study of Mus musculus with 18 samples.

Results

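The annexins and their S100 partners are described here as a gene family across 3 genotypes of mouse embryos. The 10 genes (Anxa1 to Anxa7, S100a6, S100a10 and S100a11) were chosen by symbol, from a gene list proposed with the homozygous mutant and wild-type values of these arrays already known. Differences that involve the homozygous mutants are therefore given as a description, and their counts support nothing by themselves. Of the 10 genes 9 had probe sets annotated to a single symbol, 14 probe sets in all out of 13057. Of these 10 probe sets for 7 genes were bright enough to be tested, among 6935 probe sets for 3909 named genes. S100a11 had 1 probe set, which was annotated to further genes as well, so no value is given for it.

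Embryos of embryonic day 9.5 were divided into 3 parts, and total RNA of the middle part was measured. Nkx2-5, which the labels call Csx, is a homeodomain protein needed for heart development; the embryos carried no, 1 or 2 mutant copies of its gene and are called wild type, heterozygous and homozygous mutant. Per genotype 3 arrays of type a and 3 of type b (the letters are those of the sample titles) were deposited, 18 in all. Replicate numbers are those of the titles. Wild-type arrays are numbered 1, 5 and 7, heterozygous arrays 3, 4 and 8, and mutant arrays 2 and 6, while the last mutant array is 8 on type a (8a) and 9 on type b (9b). The nature of the mutant allele, the number of embryos per array and whether equal numbers on both types stand for the same RNA are not in the labels. The p-values therefore reflect the spread among these arrays alone, and part of it may be technical. The samples are mixed tissue, in which fewer cells of a type cannot be told apart from less RNA per cell.

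Annexins are cytosolic proteins that bind acidic phospholipids of membranes when calcium rises, and they take part in membrane repair, endocytosis and exocytosis. S100 proteins are small dimeric EF-hand proteins, and several of them bind an annexin. The best known pair is annexin A2 with S100A10: an S100A10 dimer holds a pair of annexin A2 molecules at their N-termini, links membranes to actin and, at the cell surface, binds plasminogen and its activator. S100A10 has lost the ability to bind calcium, and in cells without annexin A2 the S100A10 protein is known to be unstable.

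The stretches before the transcription start of Anxa2, Anxa5 and S100a6 are shown because these genes had the highest mutant levels relative to wild type among the measured family members whose promoter is in the RefSeq table. Each sequence holds the 250 bases before the start, 5′ to 3′ on the gene's strand, in build GRCm38.p6: Anxa2 at chr9:69453433-69453682 (plus strand), Anxa5 at chr3:36475888-36476137 (minus strand) and S100a6 at chr3:90612644-90612893 (plus strand). Capitals mark matches, on either strand, to TNAAGTG (the Nkx2-5 binding element), ACGTG (the core of the hypoxia response element), TGANTCA (AP-1) and TATAAA, the core promoter box bound by TBP.
Anxa2: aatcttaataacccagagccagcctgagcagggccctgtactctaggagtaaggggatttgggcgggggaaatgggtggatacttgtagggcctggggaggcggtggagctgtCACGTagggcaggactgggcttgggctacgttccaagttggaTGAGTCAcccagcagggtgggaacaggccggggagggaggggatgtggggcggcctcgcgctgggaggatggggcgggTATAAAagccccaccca
Anxa5: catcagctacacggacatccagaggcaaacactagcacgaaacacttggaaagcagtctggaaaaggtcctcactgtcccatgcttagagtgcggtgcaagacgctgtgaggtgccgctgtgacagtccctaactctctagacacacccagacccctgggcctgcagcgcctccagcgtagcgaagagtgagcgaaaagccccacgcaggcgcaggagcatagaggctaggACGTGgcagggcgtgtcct
S100a6: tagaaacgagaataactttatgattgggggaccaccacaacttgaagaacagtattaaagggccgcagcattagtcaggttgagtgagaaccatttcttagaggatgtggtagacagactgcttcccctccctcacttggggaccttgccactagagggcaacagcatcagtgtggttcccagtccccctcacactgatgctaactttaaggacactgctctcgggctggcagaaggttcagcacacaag
The Anxa2 stretch held an ACGTG match (reverse strand) from 137 bases before the start, an AP-1 match from 95 and a TATAAA match from 17, and 3 GC boxes (GGGCGG, not capitalised). That of Anxa5 held 1 ACGTG match, from 19 bases before the start, and that of S100a6 held none of the motifs searched. Among the 32851 such stretches that RefSeq's promoters give, 16.6% held ACGTG, 6.75% TGANTCA, 12.4% TATAAA, 32.7% GGGCGG and 10.1% TNAAGTG. None of these 3 promoters held TNAAGTG, which says only that these letters are not in these windows. The motifs were chosen after expression values were known, and a match is not a binding site. Of the 10 genes 7 had a promoter in the table.

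Values are background-subtracted intensity of a probe set, an array feature of several short probes read as 1 number. Values under a noise floor (375.1 on type a, 523.1 on type b) were raised to it for the log2 scale, and testing required a value above the floor on 3 or more of the 9 arrays. Levels of different probe sets cannot be compared with each other. The arrays of a type had like scaling, with a median intensity of 472.6 to 571.3 for type a and of 269.4 to 354.6 for type b. Homozygous mutant arrays 8a and 9b stood apart in a control probe pair: their 3′/5′ actin ratio, which rises with shortened RNA, was 2.5 and 2.28, against 0.967 to 1.41 and 0.849 to 1.4 on the other arrays of their types. The spiked control BioB was also brighter there, at 3950 and 4531 against at most 1539 and 2320. Since Nkx2-5 itself had no named probe set, its own level gives no check of the genotypes.

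Anxa2 was higher in the homozygous mutants than in either other genotype, at both of its probe sets. On type b its intensity was 4604, 3086 and 2941 in wild type 1, 5 and 7, then 2861, 2727 and 3008 in heterozygous 3, 4 and 8, and 10824, 8146 and 9825 in homozygous mutant 2, 6 and 9b. The mutant arrays did not overlap with the others, and wild type 1 was the highest of the rest. The mutant mean was 9598 ± 1353 (SD, n = 3) against 3544 ± 921 in wild type and 2865 ± 140 in heterozygotes. This is a log2 fold change of 1.46 (SE 0.208), or 2.75-fold, over wild type and of 1.74 (SE 0.208), or 3.33-fold, over heterozygotes.

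The Anxa2 probe set of type a, on separate arrays, ran the same way. It had 4185, 4214 and 2878 in wild type, 2532, 3286 and 2207 in heterozygous 3, 4 and 8, and 8808, 7038 and 9043 in homozygous mutant 2, 6 and 8a. Again the lowest mutant lay above the highest of the other 6 arrays. The log2 fold change was 1.16 (SE 0.203) over wild type and 1.64 (SE 0.203) over heterozygotes. Arrays 8a and 9b, with their raised actin ratio, lay within the range of the other mutants on type b and slightly above it on type a. Without these arrays the log2 fold change over wild type was 1.09 on type a and 1.44 on type b.

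**Figure D1:**
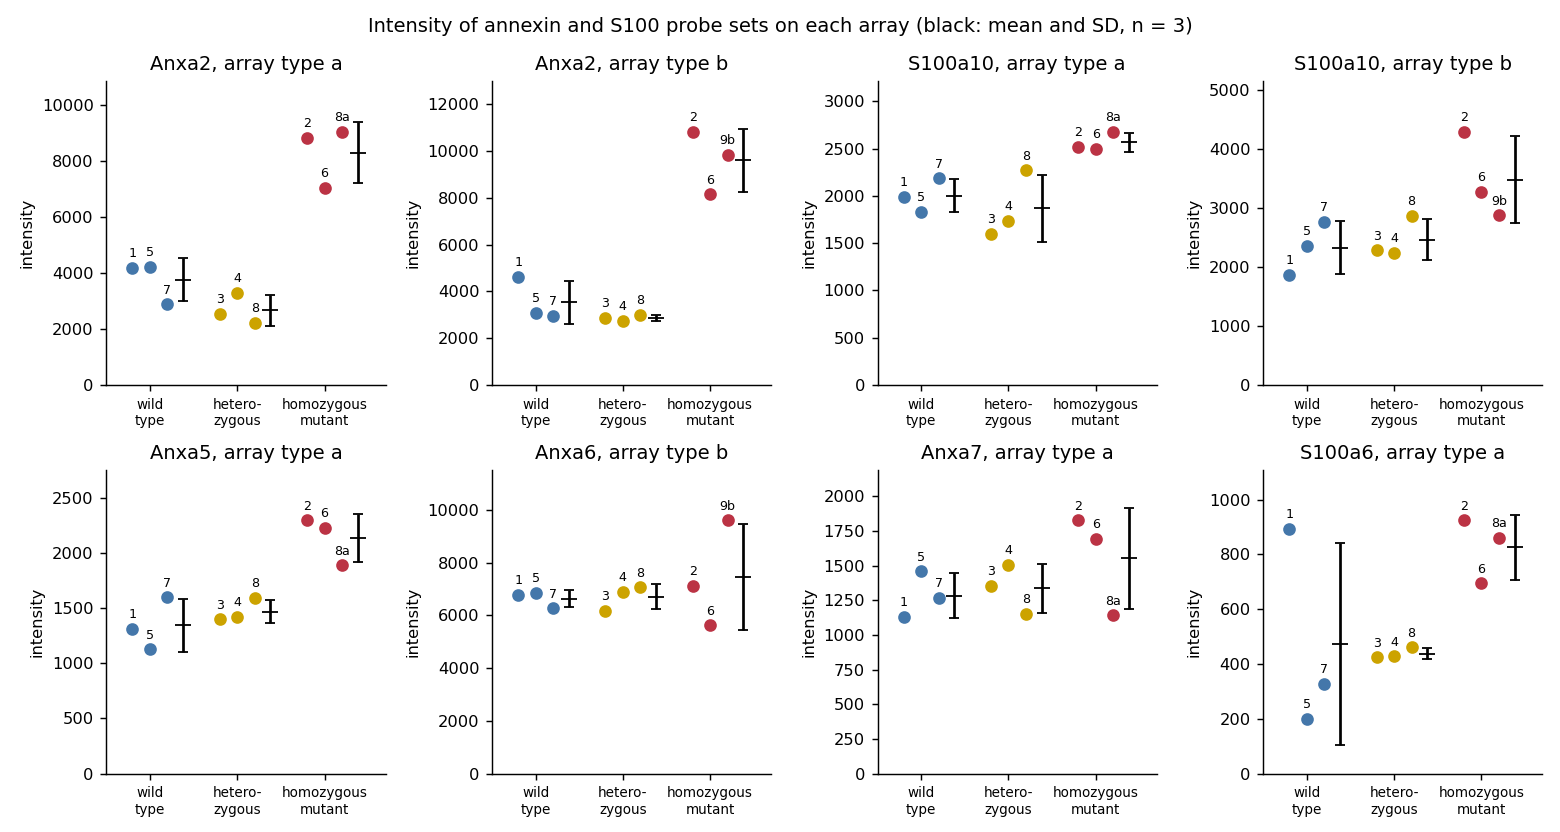
Intensity (linear axis from 0) of 8 tested probe sets of Anxa2, S100a10, Anxa5, Anxa6, Anxa7 and S100a6, one point per array labelled with its replicate number, with the mean and SD of 3 arrays per genotype in black. Anxa2 in the homozygous mutants (7038 to 9043 on type a, 8146 to 10824 on type b) lay above every other array, and S100a10 in the mutants lay above them by a small margin.

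By the fit over all 6935 tested probe sets (limma, adjusted p under 0.05) 2 of the 10 family probe sets were called higher in homozygous mutants than in wild type, and both were those of Anxa2. Of all probe sets 0.505% were called higher, and 0.692% were called in either direction. Against heterozygotes the same pair was called higher, where 0.735% of all probe sets were called higher and 1.15% in either direction. The calls against wild type depended on single arrays: the count was 0 without wild type 5, without wild type 7 or without homozygous mutant 2, and 1 without wild type 1, homozygous mutant 6 or arrays 8a and 9b. The calls against heterozygotes numbered 2 under each of 17 alternatives. Both comparisons use the same homozygous mutant arrays. The groups did not overlap, with mutants higher, for 5 of the 10 family probe sets against wild type (7.24% of all tested) and for 6 against heterozygotes (9.99% of all tested). These were probe sets of only 3 and 4 genes, as Anxa2 and S100a10 were each counted at both probe sets.

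S100a10, the partner of annexin A2, was higher in the mutants by a smaller amount. On type b it had 1861, 2356 and 2767 in wild type 1, 5 and 7, 2281, 2244 and 2861 in heterozygous 3, 4 and 8, and 4292, 3276 and 2873 in homozygous mutant 2, 6 and 9b. The lowest mutant, 9b, was almost level with heterozygous 8. The log2 fold change was 0.58 (SE 0.239), or 1.49-fold, over wild type and 0.49 (SE 0.239) over heterozygotes. On type a the intensity was 1990, 1831 and 2185 in wild type, 1598, 1733 and 2269 in heterozygotes, and 2519, 2498 and 2679 in mutants 2, 6 and 8a. There the log2 fold change was 0.36 (SE 0.190) over wild type and 0.47 (SE 0.190) over heterozygotes. Neither probe set was called in any comparison, although mutant and wild-type arrays did not overlap at either.

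Relative to the wild-type mean, Anxa2 stood further up than S100a10 on each homozygous mutant array. The difference of the log2 deviations, Anxa2 minus S100a10, was 0.92, 0.60 and 0.86 in mutants 2, 6 and 8a on type a, and 0.74, 0.72 and 1.18 in mutants 2, 6 and 9b on type b. In the other genotypes it ran from -0.93 in heterozygous 8 to 0.31 in wild type 5 on type a, and from -0.52 in heterozygous 8 to 0.71 in wild type 1 on type b. The mutant arrays lay above all others on both types, on type b by a narrow margin over wild type 1. The mean was 0.79 ± 0.17 (SD, n = 3) in mutants and -0.37 ± 0.50 in heterozygotes on type a, and 0.88 ± 0.26 and -0.37 ± 0.14 on type b, with wild type at 0 by construction and an SD of 0.43 and 0.63. This difference was not tested, since it belongs to the comparison in view when the genes were proposed. An exact permutation of 3 against 3 arrays could not give a p below 0.1.

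**Figure D2:**
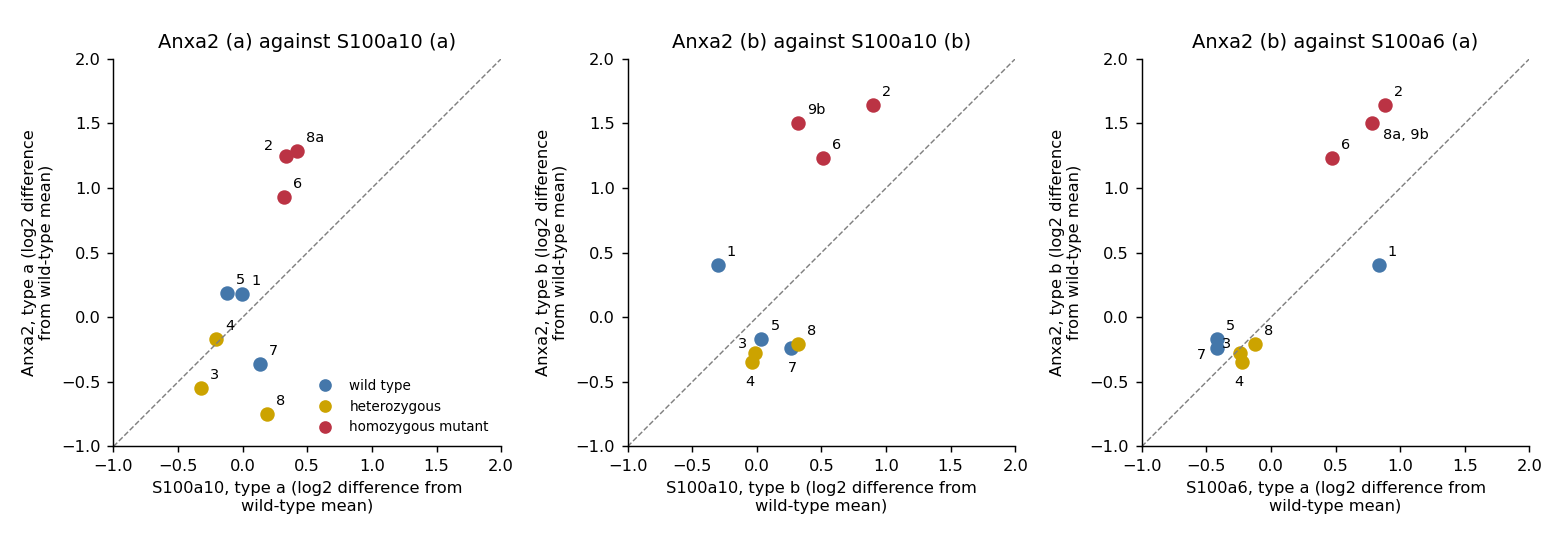
Log2 difference from the wild-type mean of Anxa2 (vertical) against S100a10 of the same array type (left and middle) and against S100a6 (right, type b against type a), one point per array, or per joined pair of arrays on the right, labelled with its replicate number (mutant 9b is joined with 8a there); the dashed line marks equal differences. Homozygous mutants lie above the line in all 3 panels, and in the right panel wild type 1 stands apart from the other wild-type and heterozygous arrays.

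Among the other annexins Anxa5 came next. Annexin A5 is the abundant phosphatidylserine-binding annexin used as a probe of dying cells. Its intensity was 1308, 1126 and 1596 in wild type 1, 5 and 7, 1396, 1420 and 1589 in heterozygous 3, 4 and 8, and 2293, 2226 and 1886 in mutants 2, 6 and 8a. Every mutant array lay above every other array. The log2 fold change was 0.68 (SE 0.214), or 1.6-fold, over wild type and 0.54 (SE 0.214) over heterozygotes, and it was not called. On type a the Anxa5 difference exceeded that of S100a10 (0.36) and fell short of that of Anxa2 (1.16).

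Anxa6, a large annexin with a doubled core that sits on endosomes and the plasma membrane, had similar levels in all genotypes. It had 6761, 6866 and 6263 in wild type, 6173, 6881 and 7060 in heterozygotes, and 7117, 5620 and 9598 in mutants 2, 6 and 9b. The mutants held both the lowest and the highest value. The log2 fold change over wild type was 0.13 (SE 0.198), and -0.067 without arrays 8a and 9b. Against heterozygotes it was 0.12 (SE 0.198), and -0.082 without those arrays.

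Anxa7, or synexin, which fuses vesicles in exocytosis, had 2 probe sets on type a that did not run together. The brighter had 1131, 1460 and 1266 in wild type, 1353, 1507 and 1152 in heterozygotes, and 1828, 1694 and 1142 in mutants 2, 6 and 8a. Mutants 2 and 6 were the highest arrays and 8a was among the lowest, so the groups overlapped (log2 fold change over wild type 0.25, SE 0.252). It was 0.46 without 8a, the array with the raised actin ratio, 0.16 without wild type 1 and 0.12 without mutant 2. The dimmer probe set ranged from 254.0 to 978.5, exceeded the floor on 6 of 9 arrays and had -0.40 (SE 0.340). Wild type 5 was its highest array.

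Anxa1, an inhibitor of inflammation, was near the floor. Its type b probe set exceeded the floor on 3 arrays, with 729.3 in wild type 5, 577.5 in heterozygous 4 and 595.7 in heterozygous 8, and lay under it in every mutant (178.4 to 439.6). Since 2 of 3 wild-type arrays also lay under the floor, its log2 fold change of -0.16 (SE 0.159) rests on wild type 5. With the floor halved the value was again -0.16, with a larger SE of 0.431. Its type a probe set was negative on all 9 arrays. The probe sets of Anxa3 (-100.7 to 136.2) and Anxa4 (46.3 to 350.2), annexins of neutrophils and of epithelia, exceeded the floor on no array and were not tested. For Anxa4 the highest value, 350.2, was that of mutant 2.

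S100a6, or calcyclin, a partner of several annexins that is induced in growing cells, had 892.2, 199.9 and 329.0 in wild type 1, 5 and 7, 424.6, 427.7 and 460.7 in heterozygous 3, 4 and 8, and 924.2, 694.6 and 860.0 in mutants 2, 6 and 8a. Mutants lay above the heterozygotes and overlapped with wild type through wild type 1 alone. The log2 fold change was 0.71 (SE 0.314) over wild type and 0.91 (SE 0.314) over heterozygotes, and it was not called. Over wild type it was 1.13 without wild type 1, and 1.08 with the floor halved and 0.083 with the floor doubled, since the gene is dim. Its type b probe set stayed under the floor on every array (-314.0 to 256.8).

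Over the 7 genes at their brightest tested probe set the median log2 fold change of mutants over wild type was 0.58, with 6 positive, while over all tested probe sets it was -0.025, with 46.9% positive. Against heterozygotes the median was 0.49, with 6 positive, and -0.071 over all. The order of the differences over wild type on type a was Anxa2 (1.16), S100a6 (0.71), Anxa5 (0.68), S100a10 (0.36) and Anxa7 (0.25). Each pair of neighbours in it, Anxa2 and S100a6 included, differed by less than the sum of their standard errors. On type b the order was Anxa2 (1.46), S100a10 (0.58), Anxa6 (0.13) and Anxa1 (-0.16).

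**Figure D3:**
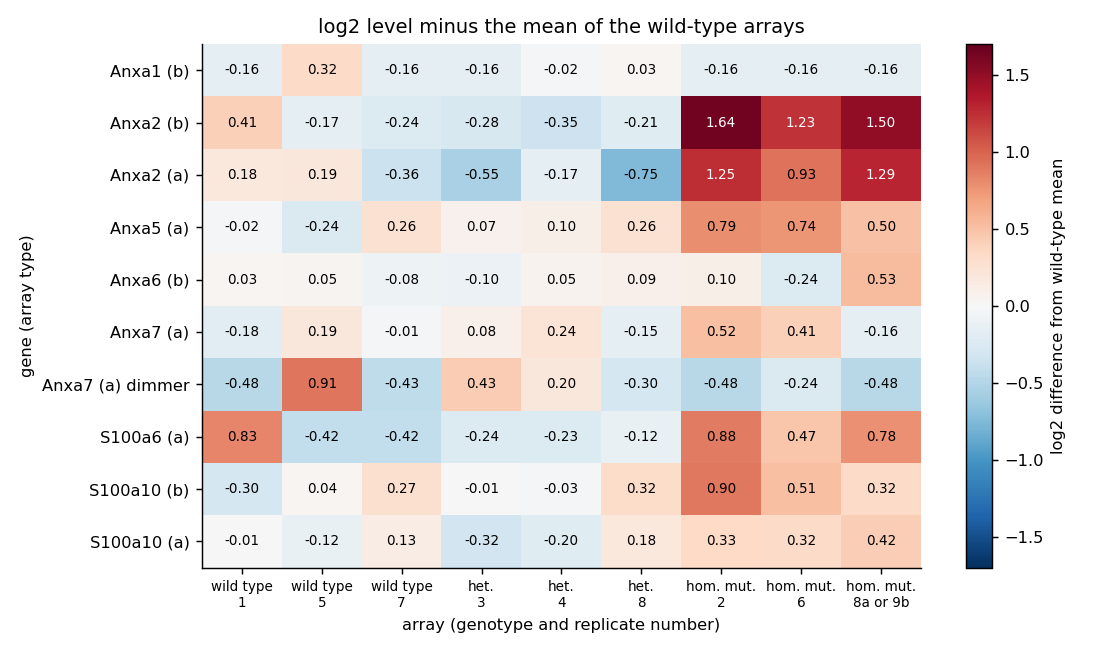
Log2 level minus the wild-type mean for the 10 tested probe sets (rows, array type in brackets) on each of the 9 arrays of their type (columns), with red for higher and blue for lower. Anxa2 stands at 0.93 to 1.64 in the homozygous mutants, S100a10 at 0.32 to 0.90 and Anxa5 at 0.50 to 0.79.

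Heterozygous embryos were then compared with wild type. No family probe set was called by limma's test, and 0% of all probe sets were. At an unadjusted p under 0.05 there was 1 family probe set of 10, where 1.7% of all tested probe sets fell under it. This was Anxa2 on type a, at -0.49 on the log2 scale (SE 0.203; 95% interval -0.93 to -0.044), for which limma's adjusted p was 1. On type b Anxa2 had -0.28 (SE 0.208), with an interval of -0.73 to 0.18, and -0.074 without wild type 1. The adjusted p was 1 for all 10 probe sets. S100a10 had -0.11 (interval -0.53 to 0.30) on type a and 0.091 (interval -0.44 to 0.62) on type b. Anxa5 had 0.14 (interval -0.33 to 0.61; 0.021 without wild type 5, 0.27 without wild type 7), Anxa6 0.015 (-0.42 to 0.45), the brighter Anxa7 probe set 0.056 (-0.50 to 0.61) and S100a6 -0.20 (-0.88 to 0.49). No family probe set separated the heterozygous from the wild-type arrays, against 6.37% of all tested. The excess of Anxa2 in mutants over heterozygotes was 3.33-fold on type b and 3.13-fold on type a, beside 2.75-fold and 2.23-fold over wild type.

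**Figure D4:**
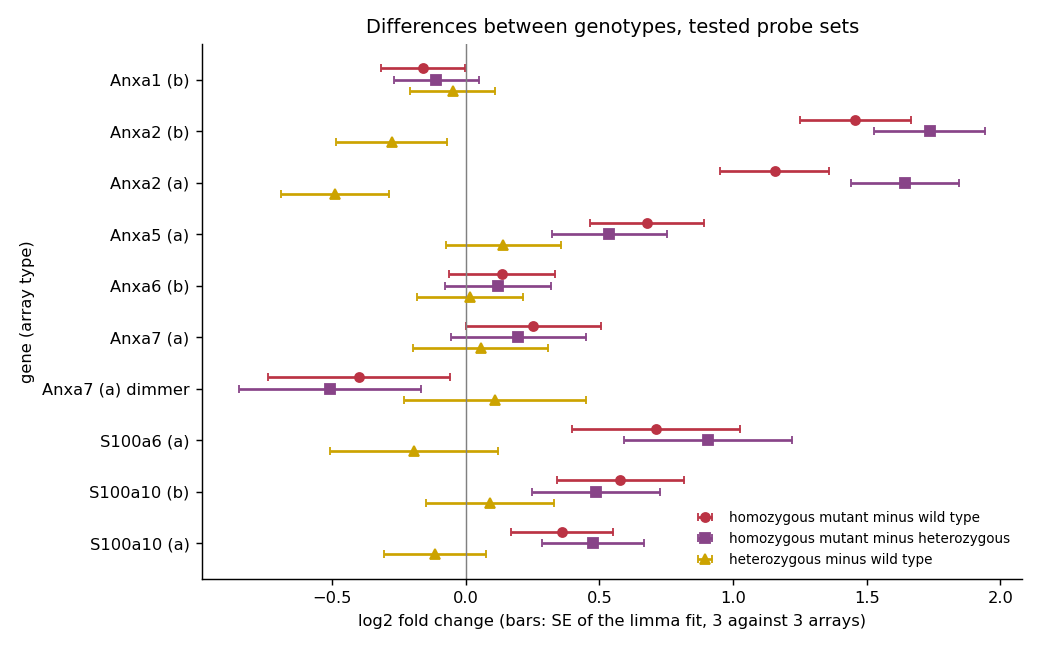
Log2 fold change with its standard error (bars) for each tested probe set (array type in brackets) in the 3 comparisons between genotypes. The Anxa2 differences with homozygous mutants are 1.16 to 1.74, those of S100a10 are 0.36 to 0.58, and the heterozygous minus wild type values (triangles) run from -0.49 to 0.14.

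Whether Anxa2 moved with S100a10 or with other annexins, apart from the mutant difference, was asked over the 6 wild-type and heterozygous arrays. Any difference between wild type and heterozygotes remains in r and its p, here and in the type a relations below. Log2 levels at the brightest probe sets were used, and genes on different array types were joined through the replicate numbers. There were 6 such relations, each with n = 6. For S100a10 Pearson's r with Anxa2 was -0.667 (two-sided exact permutation p = 0.165, Benjamini-Hochberg adjusted 0.331) and Spearman's rho was -0.0286 (exact permutation p = 1, adjusted 1). For S100a6 r was 0.926 (exact permutation p = 0.119, adjusted 0.331) and rho was 0.261 (exact permutation p = 0.594, adjusted 1). The r values were -0.641 for Anxa7 (exact permutation p = 0.0958, adjusted 0.331; rho -0.657, p = 0.175), -0.305 for Anxa5 (exact permutation p = 0.543, adjusted 0.77; rho -0.486, p = 0.356), -0.222 for Anxa1 (exact permutation p = 0.642, adjusted 0.77; rho 0.152, p = 0.833) and 0.175 for Anxa6 (exact permutation p = 0.821, adjusted 0.821; rho 0.0857, p = 0.919), with an adjusted p of 1 for each rho.

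No relation passed. Without wild type 1 and heterozygous 4, the arrays farthest from the median of Anxa2, r over the remaining 4 arrays was 0.161 for S100a10, -0.243 for S100a6, 0.176 for Anxa7, -0.505 for Anxa5, 0.919 for Anxa1 and 0.836 for Anxa6. The high r of S100a6 rested on wild type 1, where both genes were high, and was -0.335 without that array. Leaving out wild type 1 also turned the r of S100a10, to 0.492, and of Anxa1, to 0.582. Both stayed negative when any other single array was left out. Wild type 1 and heterozygous 4 also had a high level of Afp, a marker of liver bud and visceral endoderm (1406 and 1257 on type a, 90.6 to 201.0 on the other 4 arrays), and the 4 arrays of low Afp are too few for a correlation of their own. Homozygous mutant 2, not among these arrays, was high in Afp too (1775 on type a, against 233.8 and 210.4 in mutants 6 and 8a). It was the highest mutant array for Anxa2 and S100a10 on type b, but not on type a.

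On type a 4 relations could be read on the same arrays, with n = 6 each. Anxa5 had the r farthest from 0, at -0.802 (exact permutation p = 0.0528, adjusted over the 4 relations 0.211; rho -0.714, exact permutation p = 0.136, adjusted 0.544). S100a10 had -0.217 (exact permutation p = 0.651, adjusted 0.651; rho -0.257, exact permutation p = 0.658, adjusted 0.733). Anxa7 had 0.235 (exact permutation p = 0.601, adjusted 0.651; rho 0.257, p = 0.658) and S100a6 had 0.376 (exact permutation p = 0.558, adjusted 0.651; rho -0.174, p = 0.733), each rho with an adjusted p of 0.733. None passed. Without wild type 5 and heterozygous 8, the arrays farthest from the median of this Anxa2 probe set, r was -0.568 for Anxa5, 0.386 for S100a10, -0.513 for Anxa7 and 0.863 for S100a6.

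For values over all 9 arrays, mutant 8 of type a was joined with mutant 9 of type b wherever the genes lay on different types, although their numbers differ. With deviations from each genotype's mean, r with Anxa2 was -0.278 for S100a10, 0.961 for S100a6, -0.0875 for Anxa5, 0.357 for Anxa6, -0.352 for Anxa7 and -0.317 for Anxa1. Wild type 1 was the highest wild-type array for both Anxa2 and S100a6. These values share arrays and are a description.

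Over all 9 type b arrays, with the genotype difference included and therefore as a description, 979 named genes were ranked by their Pearson correlation with Anxa2. The closest were Ier3, an immediate early gene (0.965), Wt1, a transcription factor of mesothelium (0.965), Ddit4, a stress-induced inhibitor of mTORC1 (0.957), Rnf19a, a ubiquitin ligase (0.944), and Nid2, a basement membrane protein (0.936). Ier3 and Rnf19a were at or under the floor in wild type and heterozygotes and entered the ranking only through the mutants, so their r reflects the step between genotypes alone. S100a10 stood at rank 92 (r = 0.662), Anxa6 at rank 207 (0.365) and Anxa1 at rank 726 (-0.449). The family genes read on type a were not in this ranking, and joined to it they had r = 0.876 (S100a6), 0.803 (Anxa5) and 0.331 (Anxa7), so that S100a6 and Anxa5 stood above S100a10. For S100a10 the closest were Lgmn, a lysosomal protease (0.905), Nap1l1, a histone chaperone (0.897), Btg1, an inhibitor of proliferation (0.888), Hk2, a hexokinase (0.887), and Kit, a receptor tyrosine kinase (0.884), with Anxa2 at rank 45. The lists of the 5 closest genes had no gene in common.

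Other genes around the annexins gave little. Of 5 further annexins only Anxa8 had a probe set of a single symbol, and it was not tested. Of 13 further S100 genes 4 were tested, and none was called in any comparison. The median log2 fold change of mutants over wild type was -0.081, with -0.13 for S100a4 (SE 0.313), -0.092 for S100a13 (SE 0.566), -0.069 for S100a8 (SE 0.261) and -0.038 for S100b (SE 0.161). S100b exceeded the floor on 3 of 9 arrays, so its difference and SE rest largely on values raised to the floor. Of the plasminogen system, which the annexin A2 and S100A10 complex binds, 3 of 8 genes were tested and none was called (median -0.18): the activator Plat had 0.12 (SE 0.329), the receptor Plaur -0.18 (SE 0.390) and Plgrkt -0.20 (SE 0.298).

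Of 11 binding partners and receptors 5 were tested and none was called (median -0.066). Ahnak, a giant scaffold that binds the annexin A2 and S100A10 complex, had 2564 ± 802 in wild type, 2386 ± 815 in heterozygotes and 3934 ± 616 in mutants (SD, n = 3), a log2 fold change of 0.66 (SE 0.298) over wild type and 0.78 (SE 0.298) over heterozygotes. Mutants overlapped with wild type and not with heterozygotes. The others named by rank were Sri at 0.16 (SE 0.186), Pdcd6 at -0.093 (SE 0.180) and Sgta at -0.28 (SE 0.364). Of 14 membrane-actin linkers and trafficking genes 10 were tested and none was called (median -0.094). Highest were Rdx at 0.32 (SE 0.205) and Ezr at 0.32 (SE 0.284), and lowest Tsg101 at -0.46 (SE 0.208) and Vil1 at -0.17 (SE 0.168). Vil1 exceeded the floor on 3 of 9 arrays and in no mutant, so its value depends on the floor.

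Markers of cell types differed between the genotypes in part. Of 12 genes of simple epithelium 7 were tested, 6 had positive differences over wild type, and 1, Krt19, was called. Their summed intensity was 8979 to 10349 in wild type, 10025 to 12916 in heterozygotes and 15019 to 23056 in mutants, and Krt19 went from 549.8 to 885.1 in wild type to 3524 to 4044 in mutants. Of 7 neural tube genes 5 were tested, all 5 had negative differences, and none was called against wild type; their sum was 11753 to 17580 in wild type and 5317 to 9112 in mutants. Against heterozygotes 1 gene of each list was called, Krt19 higher and Hes5, a Notch target of neural progenitors, lower (log2 fold change -1.26, SE 0.245, limma adjusted p 0.0335). All 6 tested endothelial genes had positive differences both over wild type (median 0.14) and over heterozygotes (median 0.22), and none was called. The part of these 3 lists in the Anxa2 result was not tested. Sums overlapped between wild type and mutants for mesenchyme (43132 to 52445 against 38042 to 60738, 9 of 9 tested), endothelium (9323 to 12091 against 11349 to 20428, 6 of 8 tested), heart muscle (111888 to 154605 against 93933 to 220186, 7 of 9 tested), red cells (153202 to 208771 against 147530 to 257812, 5 of 6 tested), liver bud and visceral endoderm (2555 to 7785 against 3270 to 7655, 6 of 10 tested), and macrophages and platelets (3516 to 7320 against 4856 to 5069, 3 of 6 tested), and, with 1 of 6 tested, for trophoblast and decidua (1102 to 2170 against 759.8 to 1212). No gene of these 7 lists was called against wild type. Against heterozygotes the mutant sums were higher without overlap for endothelium (8344 to 10785 in heterozygotes). They were lower without overlap for macrophages and platelets (5140 to 7860 in heterozygotes) and for trophoblast and decidua (1341 to 2456 in heterozygotes). For the other lists of these 7 the sums of heterozygotes and mutants overlapped. The trophoblast and decidua values are those of Des alone, so they are no measure of these tissues as a whole. Each sum adds raw intensities, so it follows its brightest genes, such as Vim in mesenchyme and Actc1 in heart muscle. Overlap or separation of the sums therefore says little about the dimmer genes of a list. Of the defining markers Pecam1 (endothelium) and Prl8a2 (decidua) were under the floor on every array, and Pf4 (platelets) had no probe set of a single symbol.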

How the data were processed

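RNA of 18 samples was measured on 2 array types. The deposited values are background-subtracted intensity per probe set; for their software, background correction and scaling target the answer is: not given in the sources used here. The authors' scaling was kept, since trimmed means (2%) over complete probe sets differed little (1502 to 1503 for type a, 1644 to 1656 for type b). Heterozygous 8 of type b lacked 499 values, none of them of a probe set described here. After 61 control probe sets per type were left out, values under the floor (2 times the noise SD, itself 1.4826 times the median size of negative values) were raised to it, followed by log2. Probe sets were named by the platform's annotation, with symbols brought up to date by RefSeq gene identifiers (5551 of 5560 matched on type a, 1993 of 2001 on type b), and only the 7542 probe sets with 1 symbol are named (224 had several, 5291 none).

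Each type's 9 arrays were fitted with limma 3.58.1 in R 4.3.3 (lmFit, eBayes with intensity trend, two-sided), the genotypes sharing the spread, with Benjamini-Hochberg adjustment over all 6935 tested probe sets; adjusted p under 0.05 was called. The number of arrays limits the precision. Correlations used exact permutation of pairings; 9 relations had been planned and 6 could be computed, as 3 genes had no tested probe set. Family genes are given by array; of partner lists, called genes and the 2 highest and 2 lowest differences are named, with the 5 genes most like Anxa2 and S100a10. The members, lists and Afp block were chosen with earlier results of these data known. The fit was tested on simulated data. Promoters are RefSeq's (GRCm38.p6). Alternatives were quantile normalization, other floors and filters, the compared genotypes alone, an Afp block, no trend and leaving out replicates.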

Additional observations from a re-analysis of the deposited data

How the results depend on the processing

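The direction of Anxa2 in homozygous mutants did not turn under any alternative. Log2 fold changes over wild type were 1.34 to 1.66 on type b and 0.97 to 1.27 on type a. Over heterozygotes they were 1.64 to 1.85 and 1.52 to 1.80. Most of the 17 alternatives could not move these values, as Anxa2 lay well above the floor on all 9 arrays of each type. Only quantile normalization and leaving out an array of a compared genotype changed them. The rest could alter the standard error or the calls alone. The count of family probe sets called against wild type, 2 as reported, was 0 with no filter on low values, 0 with only the compared genotypes fitted, 1 with no intensity trend, and 0 to 2 when a replicate was left out; without a filter more probe sets enter the adjustment, and with fewer arrays the spread is estimated from fewer. The count over all probe sets was 7 to 54 against 48 as reported, and 15 to 95 against 80 for mutants over heterozygotes. Against wild type in heterozygotes, where nothing in the family was called, signs turned: Anxa7 had -0.0032 and S100a10 -0.013 after quantile normalization, and Anxa1 had 0.36 and S100a6 0.17 with the floor halved. With a replicate left out these heterozygous values ran from -0.035 to 0.16 for Anxa7, -0.40 to 0.22 for S100a6, -0.061 to 0.22 for S100a10, -0.026 to 0.073 for Anxa6 and -0.13 to 0.0054 for Anxa1, while Anxa2 stayed negative (-0.40 to -0.074 on type b, -0.67 to -0.36 on type a) and Anxa5 positive (0.021 to 0.27). Anxa7 in mutants over wild type ran from 0.12 to 0.46. For Anxa6 in mutants they ran from -0.067 to 0.32 over wild type and from -0.082 to 0.30 over heterozygotes. The cause was not tested.

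Correlations with Anxa2 turned sign without the arrays farthest from its median for Anxa1 (0.919), Anxa7 (0.176), S100a10 (0.161) and S100a6 (-0.243). With the other Anxa2 probe set Anxa1 had 0.343 and Anxa7 0.235, Anxa5 kept its sign at -0.802, and with the other S100a10 probe set S100a10 had 0.234. With a replicate left out r ran from -0.395 to 0.582 for Anxa1, -0.800 to 0.492 for S100a10 and -0.335 to 0.964 for S100a6. No paired analysis was possible because the genotypes of an array type share fewer than 2 replicate numbers. Signal near the floor limits Anxa1, S100a6 and the dimmer Anxa7 probe set, and leaves Anxa3 and Anxa4 unmeasured. Of the partner genes named, it limits S100b and Vil1 as well.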
